A study of Equus caballus with 3 samples.

Results

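The 9 genes described here belong to transforming growth factor beta (TGF-β) signalling in mesenchymal stromal cells (MSCs). They are the ligands *TGFB1*, *TGFB2* and *TGFB3*, the receptors *TGFBR1* and *TGFBR2*, and the extracellular matrix genes *TGFBI*, *THBS1*, *THBS2* and *POSTN*. They were chosen by name, with earlier results of these data known. All 9 had a row in each of the 3 deposited matrices, which together list 29927 genes. The MSCs were grown from 3 sources of 1 healthy warmblood mare, 10 years old: adipose tissue (AT), bone marrow (BM) and blood drawn from the periphery (PB). No treatment was given, and the cells were captured on a droplet platform after 2 passages in culture. Each source was 1 library of cells from 1 animal, so source and library cannot be told apart, and no test was run. The source of a library follows its title, whereas the deposited source name of all 3 reads peripheral blood mononuclear cells.

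TGF-β ligands are secreted in a latent form, held by their own propeptide and by latent TGF-β binding proteins in the matrix, and must be released before they bind. Released ligand brings together the type II receptor TGFBR2 and the type I receptor TGFBR1, and the type I receptor then phosphorylates SMAD2 and SMAD3. In stromal cells this pathway is known for matrix production, for contractile gene expression and for restraint of proliferation. THBS1, encoding thrombospondin 1, is both a target of the pathway and an activator of latent ligand, while TGFBI and periostin (*POSTN*) are secreted matrix proteins named as TGF-β responsive.

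Cells were kept at 2500 to 15000 unique molecular identifiers (UMIs) per barcode, with no more than 3% of them mitochondrial, which left 5403 AT-, 5580 BM- and 5318 PB-derived MSCs. The kept cells held 39980656 to 41622445 UMIs per source, with a median of 6874.5 to 7750 per cell. Levels are UMIs summed over the kept cells of a source in counts per 1000000 UMIs (CPM). Exact 95% intervals (Poisson for CPM, conditional binomial for ratios of CPM, Clopper-Pearson for shares of cells) cover counting error only. All 5318 kept PB barcodes were also listed in the AT matrix, where 5279 of them lay below the lower UMI limit with a median of 827 UMIs. The summed profile of these 5279 AT barcodes had a Pearson correlation of 0.99 with PB and 0.90 with the kept AT cells over 6720 genes. Of the barcodes kept in AT only 37 were also kept in PB and 42 in BM, and 38 were kept in both BM and PB.

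The cultures were checked against markers of other cells that are known to express TGF-β genes. Of 4 general haematopoietic markers in the matrices *PTPRC* was at 0 UMIs in all sources, and the list summed to 1.71 to 3.88 CPM. The 8 macrophage and monocyte markers summed to 7.18 CPM in AT, 12.5 in BM and 5.14 in PB, nearly all of it the lysosomal gene *CD68*, with *CD163* at 0 in all 3. The 5 platelet and megakaryocyte markers summed to 2.35, 2.71 and 2.96 CPM, with *PPBP*, *GP9* and *TREML1* at 0 in all 3. Nearly all of the sum was *ITGA2B*, with 2.30, 2.61 and 2.74 CPM. The 6 endothelial markers summed to 0.700, 0.273 and 0.264 CPM. The 5 MSC surface markers summed to 2744 CPM in AT, 2345 in BM and 2668 in PB. Among 6 smooth muscle and pericyte markers the summed level was 247 CPM in AT, 67.1 in BM and 41.4 in PB, and the muscle intermediate filament gene *DES* gave 204 CPM of the AT value. Of the others *MYH11* (5.78, 4.03 and 1.03 CPM) had the order of the sum. *LMOD1* (37.1, 56.5 and 39.3 CPM) and *NOTCH3* (0.150, 1.04 and 0.0721 CPM) were highest in BM. *RGS5* (0.475, 0.522 and 0.745 CPM) was highest in PB, and *KCNJ8* was at 0 in all 3. The part of such cells in the results below was not tested.

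All 3 ligand transcripts were lowest in AT-derived MSCs. *TGFB1*, the most widely expressed ligand gene in most tissues, had 19.7 CPM (95% interval 18.3 to 21.1) in AT, 34.0 CPM (32.2 to 35.8) in BM and 73.7 CPM (71.1 to 76.4) in PB. The intervals did not overlap, and PB was 3.75-fold (3.46 to 4.06) above AT and 2.17-fold (2.04 to 2.31) above BM. *TGFB1* was on chromosome 10 of EquCab3.0 in the matrices.

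*TGFB3* (chromosome 24), a ligand gene known in palate fusion and wound repair, had the same order of sources. It had 21.2 CPM (19.8 to 22.6) in AT, 49.5 CPM (47.3 to 51.7) in BM and 114.9 CPM (112 to 118) in PB. PB was 5.43-fold (5.05 to 5.85) above AT and 2.32-fold (2.20 to 2.45) above BM, and BM was 2.34-fold (2.16 to 2.54) above AT.

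*TGFB2* (chromosome 30), whose ligand needs the co-receptor TGFBR3 for efficient receptor binding, was sparse. Its 31 AT, 421 BM and 469 PB UMIs were 0.775 CPM (0.527 to 1.10), 10.5 CPM (9.49 to 11.5) and 11.3 CPM (10.3 to 12.3). AT therefore stood apart, with BM 13.5-fold (9.36 to 20.1) and PB 14.5-fold (10.1 to 21.6) above it. BM and PB did not differ beyond counting error, with a ratio of PB over BM of 1.08 (0.942 to 1.23).

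Summed over the 3 genes, ligand transcripts amounted to 41.6 CPM (39.6 to 43.7) in AT, 93.9 CPM (90.9 to 96.9) in BM and 199.9 CPM (196 to 204) in PB. *TGFB3* gave 50.8% (48.4 to 53.3%) of these UMIs in AT, 52.7% (51.1 to 54.3%) in BM and 57.5% (56.4 to 58.5%) in PB. *TGFB1* gave 47.3% (44.9 to 49.7%) in AT, a larger share than the 36.2% (34.6 to 37.7%) in BM and the 36.9% (35.8 to 37.9%) in PB. *TGFB2* made up 1.86% (1.27 to 2.63%), 11.1% (10.2 to 12.2%) and 5.64% (5.15 to 6.15%) in the same order of sources, so its part was largest in BM.

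The 2 receptor genes did not share an order of sources. *TGFBR1* (chromosome 25), which encodes the signalling kinase, had 9.55 CPM (8.62 to 10.6) in AT, 20.9 CPM (19.5 to 22.3) in BM and 17.8 CPM (16.5 to 19.1) in PB. AT was lowest here too, with BM 2.18-fold (1.93 to 2.47) and PB 1.86-fold (1.64 to 2.11) above it. *TGFBR2* (chromosome 16), which encodes the ligand-binding kinase, had 34.8 CPM (33.0 to 36.6) in AT, 27.7 CPM (26.1 to 29.4) in BM and 22.0 CPM (20.6 to 23.5) in PB. The order was opposite to that of the ligands, and AT was 1.25-fold (1.16 to 1.36) above BM and 1.58-fold (1.45 to 1.72) above PB.

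The thrombospondin genes were highest in AT. *THBS1* (chromosome 1) had 519.6 CPM (513 to 527) in AT, 386 CPM (380.3 to 393) in BM and 90.0 CPM (87.1 to 92.9) in PB. PB stood apart as the low source, with AT 5.77-fold (5.58 to 5.98) and BM 4.29-fold (4.14 to 4.45) above it. *THBS2* (chromosome 31), whose product is a matricellular relative known to limit angiogenesis, had 496 CPM (489.5 to 503) in AT, 149 CPM (145 to 153) in BM and 107 CPM (104 to 110.0) in PB. For this gene AT was the source that stood apart, 3.34-fold (3.24 to 3.43) above BM and 4.65-fold (4.50 to 4.80) above PB, while BM was 1.39-fold (1.34 to 1.45) above PB. The order of BM and PB was not kept in cells with no UMI of 21 S and G2/M genes, where the log2 difference of PB over BM was 0.05.

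*TGFBI* (chromosome 14), an adhesion protein gene with fasciclin domains, was low in all 3 sources. It had 11.3 CPM (10.3 to 12.4) in AT, 6.36 CPM (5.61 to 7.19) in BM and 11.0 CPM (10.0 to 12.1) in PB. AT and PB did not differ beyond counting error (ratio of PB over AT 0.973, 0.853 to 1.11), and BM was 1.78-fold (1.52 to 2.08) below AT. *POSTN* (chromosome 17), the other fasciclin gene, was nearly absent from the counts, with 5 UMIs in 4 of 5403 AT-derived MSCs and none in BM or PB. With no UMI counted, the upper Poisson bounds were 0.0917 CPM in BM and 0.0886 CPM in PB, so no fold is given against the 0.125 CPM (0.0406 to 0.292) in AT.

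**Figure D1:**
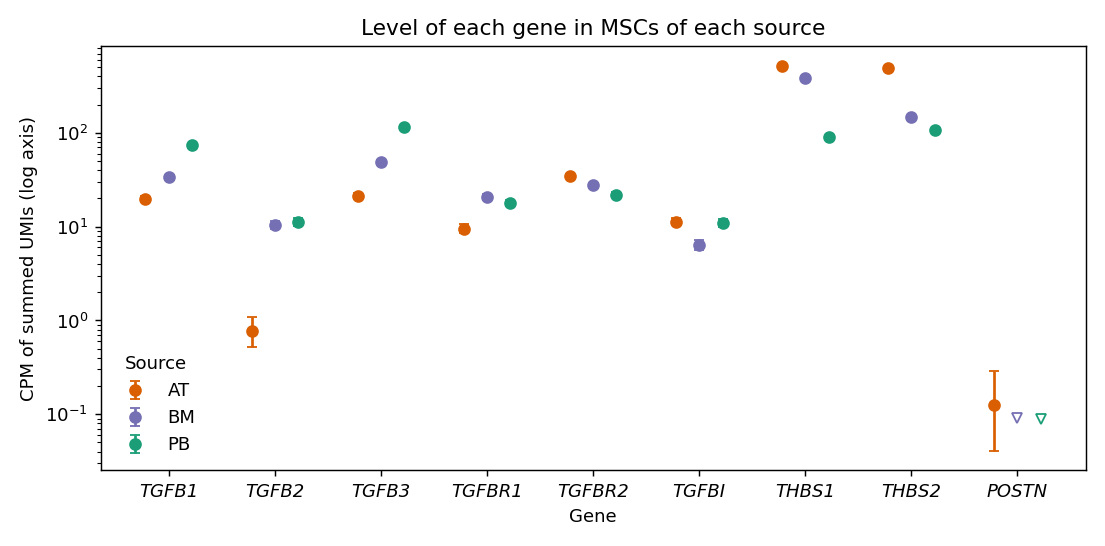
CPM of summed UMIs of each of the 9 genes (log axis) in AT-, BM- and PB-derived MSCs. Points are 1 library each, bars are exact 95% Poisson intervals, and open triangles mark the upper bound where no UMI was counted. The 3 ligand genes lie lowest in AT, *THBS1* and *THBS2* lie highest in AT, and *POSTN* reaches only 0.125 CPM.

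To set these differences beside those of all genes, log2(CPM + 1) was subtracted between sources and a difference of at least 1 (2-fold) was counted, for genes with at least 10 CPM in either source. The pseudocount lowers the difference of sparse genes such as *TGFB2*. *POSTN* did not reach 10 CPM, so 8 genes entered. These were chosen with earlier results of these data known, so the shares of all genes are a description and not a blind background. Between PB and AT 5 of the 8 genes differed 2-fold, as did 9.82% of all genes. Of these, 3 were higher in PB (*TGFB1* by 1.85, *TGFB2* by 2.79 and *TGFB3* by 2.39 on the log2 scale), where 5.8% of 6720 genes were. Lower in PB were 2, *THBS1* with a difference of -2.52 and *THBS2* with -2.21, where 4.02% of all genes were. The median size of the difference was 2.03 for the 8 genes and 0.25 for all genes tested.

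Between BM and AT 4 of the 8 genes differed 2-fold, as did 10.8% of all genes. Higher in BM were 3, *TGFB2* by 2.69, *TGFB3* by 1.19 and *TGFBR1* by 1.05, where 8.33% of 7072 genes were. *THBS2* was the 1 gene lower in BM, with -1.73, where 2.46% were. Of all genes past 2-fold 77.2% were higher in BM, and 56.3% with TMM factors, which equalise the bulk of genes between libraries. The median of all genes was itself 0.24 higher in BM, and relative to it *TGFB3* was at 0.95 and *TGFBR1* at 0.81. With TMM factors *TGFB3* was at 0.92 and *TGFBR1* at 0.79, and *THBS2* was the only 1 of the 4 calls kept, since *TGFB2*, still at 2.49, then had less than 10 CPM in both sources. The median size was 0.90 for the 8 genes against 0.34 for all.

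Between PB and BM 3 of the 8 genes differed 2-fold, as did 7.95% of all genes. *TGFB1* (1.10) and *TGFB3* (1.20) were higher in PB, where 2.15% of 7066 genes were, and *THBS1* (-2.09) was lower, where 5.8% were. Of all genes past 2-fold 27.0% were higher in PB, and 46.9% with TMM factors, under which *TGFB1* was at 1.32, *TGFB3* at 1.43 and *THBS1* still past 2-fold, the median of all genes being -0.20 without them. In cells with no UMI of 21 S and G2/M genes the difference of *TGFB1* was 0.47 and that of *TGFB3* 1.04. BM had more cells with such UMIs, 2505 with at least 3 against 1726 in AT and 1636 in PB, and the 21 genes summed to 1146 CPM in BM against 598 in AT and 538 in PB. Cells with no such UMI were shallower than all kept cells, with medians of 5756 against 6874.5 UMIs in BM and 6905.5 against 7750 in PB. The part of cell cycle and of depth in the source differences was not tested. These 3 comparisons share their libraries and are not independent of each other.

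**Figure D2:**
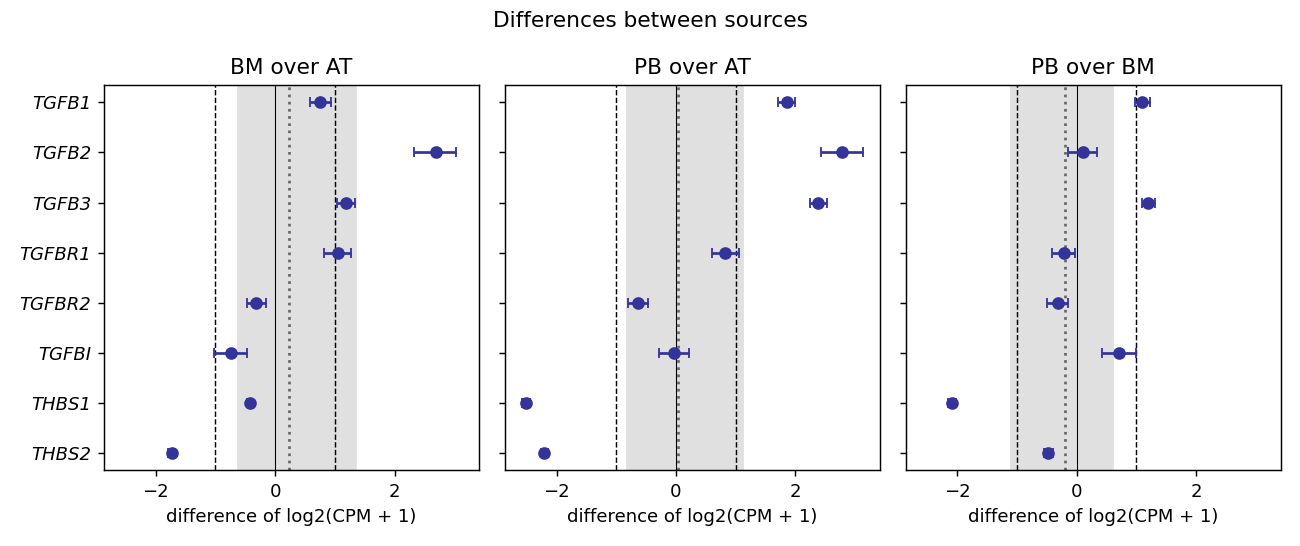
Difference of log2(CPM + 1) between sources for the 8 genes with at least 10 CPM, with counting bounds as bars. Grey bands span the 5th to 95th percentile of all genes tested, dotted lines their median, and dashed lines a 2-fold difference. *TGFB1*, *TGFB2* and *TGFB3* lie right of the band for PB over AT, and *THBS1* and *THBS2* lie left of it.

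For *TGFB1*, *TGFB3* and *THBS1* the shares of cells with a UMI had the same order of sources as the summed levels. The share of cells with *TGFB1* UMIs was 12.3% (11.4 to 13.2%) in AT, 19.4% (18.3 to 20.4%) in BM and 39.1% (37.7 to 40.4%) in PB, and with *TGFB3* UMIs 13.5% (12.6 to 14.5%), 26.3% (25.2 to 27.5%) and 53.8% (52.4 to 55.1%). *THBS1* was found in 68.9% (67.6 to 70.1%), 62.2% (60.9 to 63.5%) and 29.7% (28.4 to 30.9%) of cells. *THBS2* was found in 87.2% (86.3 to 88.1%), 46.2% (44.9 to 47.5%) and 50.0% (48.6 to 51.4%), so that BM, with the higher sum, had the lower share of cells than PB. *TGFBI* was found in 7.74% (7.04 to 8.48%), 4.37% (3.85 to 4.94%) and 8.10% (7.38 to 8.87%) of cells, with AT and PB not apart in share or sum.

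Depth was equalised by drawing 2500 UMIs from each kept cell, and the share with *TGFB3* was then 4.81% for AT, 11.1% for BM and 25.2% for PB. At this depth the share with any of the 3 ligand genes was 9.51% (8.74 to 10.3%) for AT, 20.8% (19.7 to 21.9%) for BM and 39.2% (37.9 to 40.6%) for PB. The order of the sources for *TGFB3* was the same as before thinning. *THBS2* at 2500 UMIs was found in 24.3% (23.2 to 25.5%) of BM- and 22.5% (21.4 to 23.7%) of PB-derived MSCs, intervals that overlap. These cultures offered no cells known to lack the genes, and the background share from free RNA was therefore not measured.

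Among cells of the same source, *THBS1* had a larger ratio of variance to mean than *TGFB1* and *TGFB3*, genes with fewer UMIs in AT and BM. A single cell held up to 106 *THBS1* UMIs in AT, up to 46 in BM and up to 35 in PB, against 4, 6 and 8 for *TGFB3*. At 2500 UMIs per cell the variance of *THBS1* was 4.01 times its mean in AT, 2.70 times in BM and 1.76 times in PB, where 1 is the value of pure counting noise. The median over genes of similar mean was 1.14, 1.10 and 1.03, and *THBS1* was at percentiles 97.5, 98.6 and 98.9 of them. *TGFB1* (ratios of 1.05, 1.18 and 1.12) was at percentiles 89.8, 96.5 and 94.4 and *TGFB3* at 91.6, 93.5 and 88.7 of the genes near their own means, so these ligand genes too were above most genes of their level. *THBS2* had ratios of 1.58, 1.47 and 1.08, at percentiles 87.0, 96.0 and 84.9 of the genes near its mean. The ratios of *TGFB3* were 1.06, 1.13 and 1.10, and in AT and PB its percentiles were above those of *THBS2*. *TGFBR2*, with 0.987 in BM and 0.974 in PB, showed no spread beyond counting noise.

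**Figure D3:**
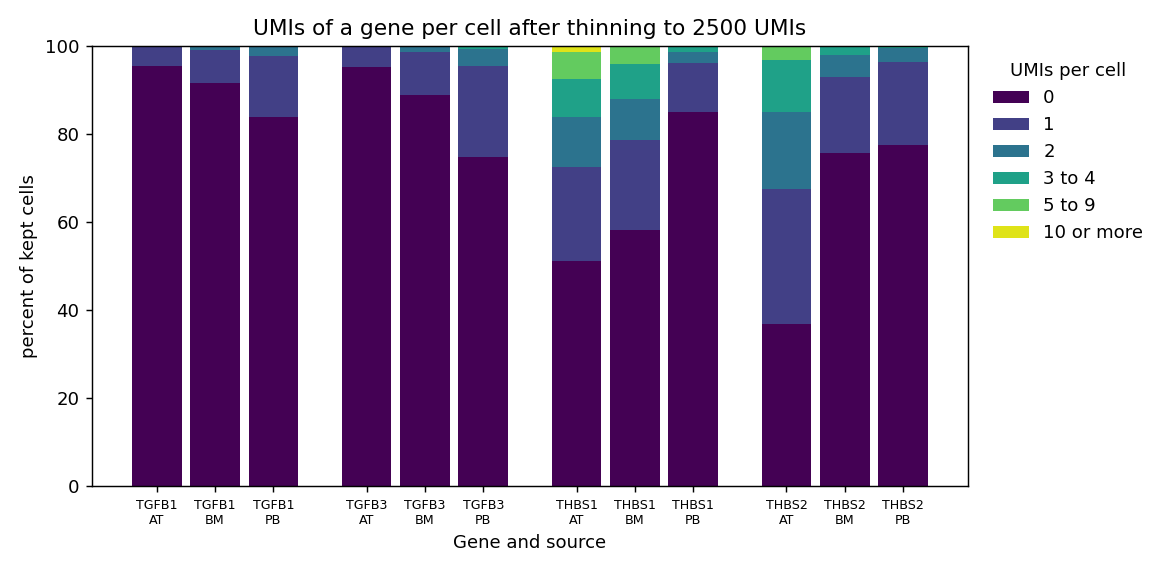
Percent of kept cells of each source by the number of UMIs of *TGFB1*, *TGFB3*, *THBS1* and *THBS2* (colours) after each cell was thinned to 2500 UMIs. At least 10 *THBS1* UMIs were held by 1.33% of cells in AT, 0.323% in BM and 0.0188% in PB, while no cell reached 5 *TGFB3* UMIs.

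Since contractile gene expression is a known readout of TGF-β signalling, the cells of each source were ranked by the share of their UMIs on 12 contractile genes (*ACTA2*, *TAGLN*, *MYL9*, *CNN1*, *TPM1*, *TPM2*, *CALD1*, *ACTG2*, *DES*, *MYH11*, *LMOD1* and *SYNPO2*) and divided into 4 strata of equal size. None of the 9 genes is in this list, and the share was not tested as a measure of TGF-β signalling. The share is a continuous range, with 415 to 919 cells within 10% of a boundary value, and the strata are not cell types. In the lowest and the highest stratum it was 0.218% and 1.61% of UMIs in AT, 0.406% and 1.56% in BM, and 0.322% and 1.05% in PB. Cells of the highest stratum were also deeper, with median UMIs of 7847 against 6753 in AT, 7438 against 6162 in BM and 8316 against 7196.5 in PB. The part of depth in the differences between strata was not tested.

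*THBS1* was higher in each successive stratum of all 3 sources. In AT it had 124, 248, 501 and 1141 CPM from the lowest stratum to the highest, in BM 157, 275, 401 and 679.9 CPM, and in PB 29.5, 57.7, 95.7 and 166 CPM. In the 2 lowest strata AT was thus below BM, and in the 2 highest above it, although the strata hold different contractile shares in each source. Highest and lowest stratum differed by 3.20 on the log2 scale in AT (counting bounds 3.09 to 3.31), 2.11 in BM and 2.45 in PB. Of genes outside the contractile list, 1.94% of 6499 in AT, 1.16% of 7160 in BM and 0.866% of 6579 in PB were at least 2-fold higher in the highest stratum. *TGFBI* was the only other member past this limit, and in AT alone, with 7.12 CPM in the lowest and 16.0 CPM in the highest stratum. Of other genes listed as TGF-β responsive, 1 of 14 measured in AT, 1 of 17 in BM and 1 of 16 in PB were also 2-fold higher. In BM and PB 1 each was 2-fold lower, where 0.922% and 0.608% of genes were. Their median log2 differences were 0.23, 0.19 and -0.05, against -0.03, -0.07 and 0.04 for all genes outside the contractile list. Those of SMAD and feedback genes were 0.04, -0.24 and -0.07.

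*THBS2* had a shallower gradient, with 352 and 661 CPM in the lowest and highest strata of AT, 125 and 172 in BM and 80.2 and 136 in PB. *TGFB3* was lower in the highest than in the lowest stratum of each source, by under 2-fold. It had 25.5 and 16.9 CPM in these strata of AT, 48.7 and 39.7 in BM, and 125 and 94.3 in PB. In BM the fall was not stepwise, since the second stratum, with 58.6 CPM (54.0 to 63.6), was above the lowest (44.4 to 53.4). In PB the first 3 strata had 125, 125 and 118 CPM. *TGFB1* in the lowest and highest strata had 39.6 and 29.9 CPM in BM and 89.6 and 60.4 CPM in PB. In AT its intervals overlapped (18.9 CPM, 16.2 to 21.9, and 22.8 CPM, 20.0 to 25.8). *TGFB2* was higher in the highest stratum of BM, with 8.74 CPM (6.95 to 10.9) and 13.0 CPM (10.9 to 15.4), and its intervals overlapped in PB (10.7 CPM, 8.74 to 13.0, and 12.4 CPM, 10.5 to 14.7) and in AT, where these strata held 8 and 7 UMIs. *TGFBR2* in AT was at 40.4 CPM in the lowest and 25.6 CPM in the highest stratum.

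Cell cycle genes moved with the strata in AT, where 10 of 17 measured S and G2/M genes were at least 2-fold lower in the highest stratum, where 1.69% of genes were. In BM 2 of 21 were, where 0.922% of genes were, and in PB 0 of 18, where 0.608% were. In PB the median of the 18 was 0.35 higher in the highest stratum, and 1 of them was past 2-fold there, the replication licensing gene *MCM5* with a log2 difference of 1.11. When only cells with no UMI of these genes were divided into strata, *THBS1* in the lowest and highest strata was at 134 and 1271 CPM in AT, 90.5 and 669 CPM in BM and 27.7 and 159 CPM in PB. *TGFB1* was then at 58.9 (46.7 to 73.3) and 34.7 CPM (26.3 to 45.0) in BM and at 83.2 (71.2 to 96.7) and 46.6 CPM (38.6 to 55.8) in PB. These strata were smaller, with 257 to 350 cells each, so their counting intervals are wider. *TGFB3* kept its direction, with 22.2 and 14.3 CPM in AT, 59.6 and 50.0 in BM and 133 and 111 in PB. Its intervals overlapped in each source. In the same cells the intervals also overlapped for *TGFBR2* in AT (36.4 CPM, 28.5 to 45.8, and 27.7 CPM, 21.4 to 35.2), for *TGFB2* in BM (5.89 CPM, 2.54 to 11.6, and 12.2 CPM, 7.45 to 18.8) and, by a small margin, for *TGFBI* in AT (5.05 CPM, 2.42 to 9.29, and 13.4 CPM, 9.18 to 18.9). *THBS2* kept its direction, with 367 and 679 CPM in AT, 68.4 and 116 CPM in BM and 74.5 and 147 CPM in PB.

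**Figure D4:**
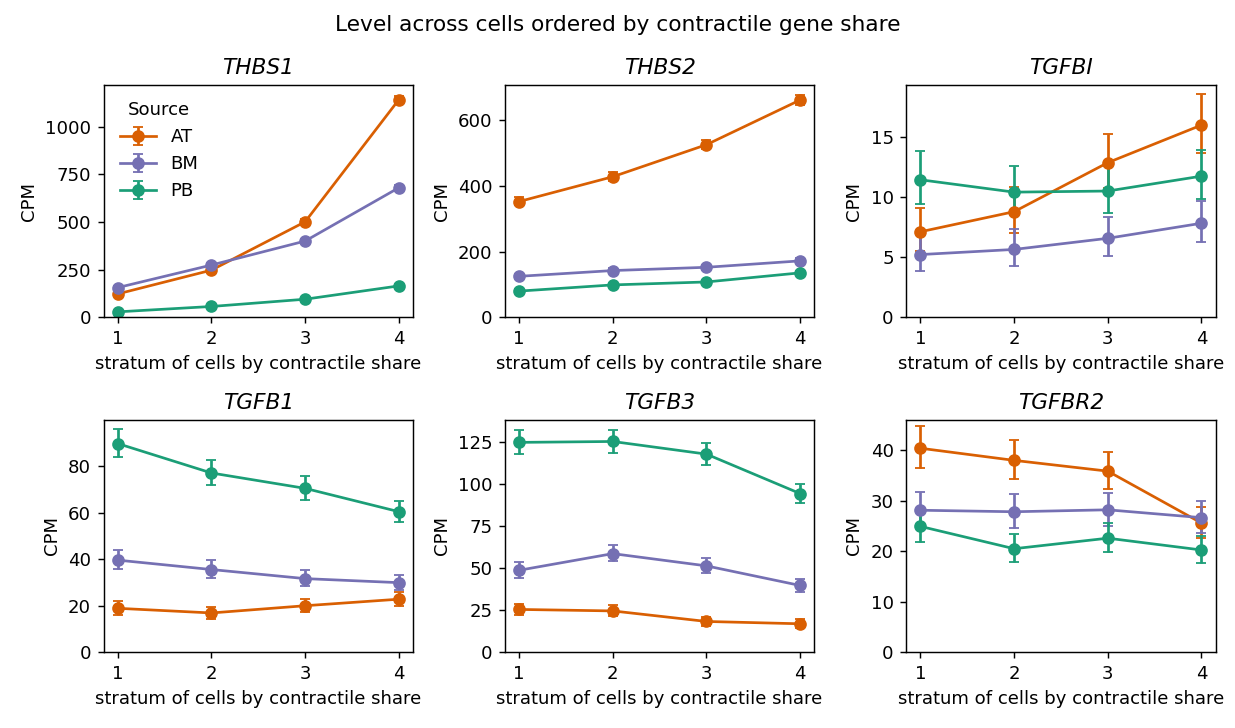
CPM of 6 of the genes in strata of cells ordered by the share of UMIs on 12 contractile genes, from the lowest (1) to the highest (4), in each source. Bars are exact 95% Poisson intervals, and every vertical axis starts at 0 with its own scale. *THBS1* climbs to 1141 CPM in AT, while *TGFB3* ends below its start in all 3 sources.

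Across single cells at 2500 UMIs, the Spearman correlation of *THBS1* with the summed contractile genes was 0.49 over 5403 AT-, 0.33 over 5580 BM- and 0.22 over 5318 PB-derived MSCs. The genes with the most similar pattern to *THBS1*, among genes found in at least 25% of the cells, were *TPM1* (0.44), *ACTA2* (0.36) and *CALD1* (0.35) in AT, which encode tropomyosin, smooth muscle actin and caldesmon. In BM *TPM1* (0.31) came first as well. For *THBS2* in AT and *TGFB3* in PB no gene reached 0.3, and no other gene of the 9 was frequent enough. *THBS1* and *THBS2* had a correlation of 0.23 in AT, 0.12 in BM and 0.08 in PB. All points of a correlation share a library. *TGFB1* and *TGFB3* were together in 5 AT- (0.0925%), 51 BM- (0.914%) and 204 PB-derived MSCs (3.84%), where the product of their shares gives 0.222%, 0.930% and 4.05%.

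Cells with at least 3 UMIs of the S and G2/M genes were compared with cells that had none. The former were also deeper, with median UMIs of 8125 against 6420 in AT, 8103 against 5756 in BM and 8829 against 6905.5 in PB. The part of depth in this comparison was not tested. In BM *TGFB1* was at 24.3 CPM (22.3 to 26.6) in the former and 45.1 CPM (39.9 to 50.8) in the latter, and *TGFB3* at 41.1 CPM (38.4 to 43.9) and 59.4 CPM (53.4 to 65.9). *THBS2* went the other way in BM, with 179 CPM (173 to 185) and 104 CPM (95.7 to 112), as did *THBS1* with 437 CPM (428 to 446) and 336 CPM (322 to 351). In AT both were lower in the cells with these UMIs, *THBS2* with 440.2 CPM (429 to 451) and 524 CPM (509 to 540), and *THBS1* with 436 CPM (425 to 447) and 575 CPM (559 to 591). In PB the intervals of both overlapped. In PB *TGFB1* was at 75.0 CPM (70.6 to 79.5) and 62.9 CPM (57.9 to 68.3), the opposite direction to BM. *TGFB3* in PB was at 101 CPM (96.0 to 106) and 123 CPM (116 to 131), the same direction as in BM. For both ligand genes the intervals overlapped in AT. No member differed 2-fold in any source, where 2.98% (AT), 5.72% (BM) and 2.79% (PB) of genes were at least 2-fold higher and 0.0768%, 0.884% and 0.015% lower in cells with these UMIs.

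Other genes of the pathway were described from fixed lists, whose counts are read beside the shares of all genes past 2-fold. These were 8.33% higher and 2.46% lower for BM over AT, 5.8% and 4.02% for PB over AT, and 2.15% and 5.8% for PB over BM. Of 8 ligand genes that signal through SMAD2 and SMAD3, 4 reached 10 CPM, the 3 *TGFB* genes and *INHBA*, which encodes the activin A subunit. *INHBA* had 6.10 CPM in AT, 23.3 in BM and 20.4 in PB, so AT was again lowest. *INHBB*, the activin B subunit gene, did not reach 10 CPM and was highest in AT, with 7.33 CPM in AT, 2.78 in BM and 0.312 in PB. *INHBA* was also among the genes at least 2-fold higher in the highest contractile stratum of every source, with 0.863 and 15.3 CPM in AT, 13.1 and 37.8 in BM and 13.8 and 29.8 in PB. None of the 3 *TGFB* genes differed 2-fold between these strata in any source.

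Of 13 genes for latency and activation in the matrices 8 reached 10 CPM. Higher in BM than AT by 2-fold were 2 (8.33% of all genes), the latent TGF-β binding protein gene *LTBP1* (42.3 CPM in AT, 124 in BM, 84.2 in PB) and the integrin gene *ITGB5* (28.4, 73.2 and 47.0 CPM). Fibrillin 1 (*FBN1*), the microfibril protein to which latent complexes bind, was lower in BM (360 CPM in AT, 117 in BM, 192 in PB). *LTBP2* (109, 81.2 and 44.7 CPM) was the 1 gene lower in PB than AT, and none of the 8 differed 2-fold between PB and BM.

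Among 8 receptor genes, 5 reached 10 CPM in AT or BM. *TGFBR3*, the co-receptor betaglycan, had 20.1 CPM in AT, 7.18 in BM and 2.98 in PB, so it was highest in the source in which *TGFB2* was lowest. The activin receptor gene *ACVR2A* (12.7, 7.88 and 5.26 CPM) was lower in PB than AT. Of the SMADs and feedback genes, 1 of 8 reaching 10 CPM was 2-fold higher in BM than AT (8.33% of all genes). For PB over AT it was 1 of 7 (5.8%). In both cases this was the inhibitory *SMAD7*, a target and brake of the pathway, with 7.33, 30.3 and 18.9 CPM. The other genes of this list that reached 10 CPM were under 2-fold in both comparisons.

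Of 18 responsive genes in the matrices 16 reached 10 CPM in AT or BM and 15 in AT or PB. For BM over AT 4 were higher and 2 lower, for PB over AT 2 and 2, and for PB over BM, among 16, 3 and 2. The medians of the list were -0.23, 0.21 and 0.13 on the log2 scale, where those of all genes were 0.24, 0.03 and -0.20. The largest differences were those of the transcription factor gene *SNAI2* (7.50 CPM in AT, 55.1 in BM, 5.55 in PB), of the proteoglycan gene *VCAN* (115, 120 and 31.2 CPM), of the cell cycle inhibitor gene *CDKN1A* (34.3, 96.9 and 103 CPM) and of the integrin gene *ITGA11* (6.48, 29.2 and 17.8 CPM). *FN1* and *COL1A1*, encoding fibronectin and type I collagen, were lowest in BM, with 1103, 545 and 1276 CPM and 6259, 2700 and 6036 CPM. Of 5 thrombospondin and fasciclin relatives none reached 10 CPM, and *THBS3* was highest with 7.70, 2.19 and 4.88 CPM. Of the contractile genes themselves, 2 of 10 were lower in BM than AT (2.46% of all genes). In PB 3 of 10 were lower than in AT (4.02%) and 2 of 9 lower than in BM (5.8%). The smooth muscle actin gene *ACTG2* was among them each time (422, 184 and 52.4 CPM). *DES* was among those lower than in AT (204, 5.04 and 0.288 CPM), and the calponin gene *CNN1* among those lower in PB (106, 162 and 33.1 CPM). The whole contractile list summed to 7485 CPM in AT, 9079 in BM and 6525 in PB. Its median log2 difference was 0.20 for BM over AT, -0.46 for PB over AT and -0.51 for PB over BM. Of the S and G2/M genes, 9 of 21 were higher in BM than AT (8.33% of all genes) and 15 of 21 lower in PB than BM (5.8%), such as the mitotic kinase gene *CDK1* with 19.6, 43.3 and 12.3 CPM, while none of 17 differed 2-fold between PB and AT.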

How the data were processed

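MSCs of 3 sources, 1 library each, were analysed. Per the labels and the methods of the study, the authors used CellRanger with EquCab3.0 and counted UMIs per gene with ESAT, which takes in reads just downstream of a gene and leaves out overlapping exons of opposite strands. Duplicated genes were counted in a second run. The matrices deposited by the authors hold raw counts of UMIs, not normalized, and every value was whole. Counts were summed over kept cells and divided by their total. Sums, intervals and thinning (seed 1) were computed with NumPy 2.4.6 and SciPy 1.17.1, and TMM factors with edgeR 4.0.16. Cells are not replicates, so no p-value is given. The multiplet caller of the study was not run, so that only the upper limit on UMIs bears on doublets. The ratio step was tested on simulated data. The members and lists were chosen with earlier results of these data known. Named genes are the 9 members, list genes past 2-fold (at most 3 with the largest differences per list and pair) and, per member found in at least 25% of cells, the 3 most correlated genes from 0.3 upwards. Values of 1 gene that this rule names are not reported here. *THBS3*, *COL1A1*, *INHBB*, *MCM5* and the levels of *INHBA* across strata were chosen after their values were seen. So were the strata of cells without cell cycle UMIs and the counts and medians of list genes across strata. Alternatives covered thinning, UMI and mitochondrial limits, likely doublets, scaling, pseudocount, weighting of cells, cell cycle, shared barcodes and the CPM minimum. Genomic positions within chromosomes and sequences of the members were not analysed here.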

Additional observations from a re-analysis of the deposited data

Results flagged for a closer look

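The AT matrix held 5279 barcodes below the lower UMI limit that were kept in PB. Their UMIs in the PB matrix enter the comparisons above, and their UMIs in the AT matrix do not. Their summed UMIs gave 109 CPM of *TGFB3*, against 115 CPM in the kept PB- and 21.2 CPM in the kept AT-derived MSCs. *THBS1* was at 103 CPM in these barcodes, against 90.0 CPM in PB and 519.6 CPM in AT. Both values come from data outside the comparisons and lie far above the level of 3 UMIs. The summed profile of these barcodes had a Pearson correlation of 0.99 with PB and 0.90 with the kept AT cells. Levels near those of PB are therefore not a separate result about AT. The median barcode had 10.7% of the UMIs that it had in the PB matrix.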

How the results depend on the processing

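The numbers of members past 2-fold were 4 for BM over AT, 5 for PB over AT and 3 for PB over BM. The BM over AT number was 2 with all barcodes of at least 500 UMIs, which adds the AT barcodes shared with PB, and 1 with TMM factors, with median-of-ratios size factors and with a pseudocount of 25 CPM, *THBS2* in each case. With that pseudocount the PB over BM number was 1, *THBS1*. All other alternatives left the 3 numbers within 1.5 times, and the causes of these shifts were not tested. Single log2 differences under 1 were those of *TGFBR1* for BM over AT (0.97 after thinning, 0.98 from 500 UMIs, 0.79 with either scaling and 0.41 with 25 CPM), of *TGFB3* for BM over AT (0.73 from 500 UMIs, 0.92 with either scaling, 0.69 with 25 CPM), of *TGFB1* for PB over BM (0.96 after thinning or with means of single-cell CPM, 0.47 without cell cycle UMIs, 0.74 with 25 CPM), of *TGFB3* for PB over BM (0.91 with 25 CPM) and of *TGFB2* for both sources over AT (0.46 and 0.49 with 25 CPM). Without cell cycle UMIs *TGFB1* for BM over AT was past 2-fold, at 1.15. Of differences under 2-fold, *TGFBI* for PB over AT, *TGFBR1* for PB over BM and *THBS2* for PB over BM changed sign under at least 1 alternative. No difference past 2-fold changed sign under any alternative run, and 78 of 306 differences lay outside the counting bounds. The alternative without barcodes that another library holds gave no value for PB, since every kept PB barcode is in the AT matrix. Without barcodes that another library also kept, an alternative chosen after seeing the data, the numbers were 4, 5 and 3. No paired analysis was possible because each source had 1 library and no test was run. With 1 library per source, the spread between cultures is unknown, and *TGFB2* in AT and *POSTN* in all sources are limited by their counts.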
